A study of Mus musculus with 10 samples.

Results

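Elastic fibres are built from cross-linked elastin laid on fibrillin microfibrils. Of 8 genes for their components, chosen by name (Eln, Fbn1, Fbln1, Fbln2, Fbln5, Mfap4, Mfap5 and Emilin1), 7 were measured, by 14 of the 45101 probe sets on each array and among 18193 genes with a probe set; Fbn1 was not analysed here. The arrays held total RNA from the distal colorectum, about 1 cm above the anus, of C57BL/6J mice. The groups were irradiated Pdgfc-/- (knockout, n = 3), unirradiated Pdgfc-/- (n = 2), irradiated Pdgfc+/+ (wild type, n = 3) and unirradiated Pdgfc+/+ (n = 2). Irradiated mice received 25 Gy of local γ-rays at 2.14 Gy/min under chloral hydrate and were killed 8 weeks later. Pdgfc encodes a ligand of the PDGF receptor alpha of fibroblasts, and the design asks what irradiation and loss of Pdgfc change. The sources used here do not say how the knockout allele was made, in which cells Pdgfc is lost or how old the animals were. The labels call the replicates biological without further detail.

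Tropoelastin, the product of Eln, is secreted as a soluble monomer, gathers on microfibrils and is joined into an insoluble, stretchable polymer by lysyl oxidases. Fibulins and microfibril-associated proteins guide this assembly, and emilins lie where elastin meets the microfibril. In the gut wall these fibres are found mainly around blood vessels, between muscle layers and in the submucosa, and fibroblasts and smooth muscle cells secrete their parts.

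Every array had 9 or 10 of 10 absorptive colonocyte markers and 7 of 7 goblet cell markers above its own median, both being epithelial cells of the labelled tissue. Pdgfc itself had a log2 signal of 6.84 ± 0.50 in irradiated knockout (SD, n = 3), against 8.66 ± 0.09 in irradiated wild type (SD, n = 3). Without irradiation it was 6.02 ± 0.57 in knockout and 7.25 ± 0.35 in wild type (SD, n = 2 each). Both differences were negative but did not pass limma's test over all genes (adjusted p = 0.69 after irradiation and 0.16 without), and whether the probe set lies in the deleted part was not tested. Sex transcripts gave a female pattern on all irradiated wild-type arrays and on replicate 1 of irradiated knockout, and a male pattern on the other 6 arrays. In wild type, irradiation and sex therefore cannot be told apart. RNA integrity was read from Gapdh: its 3′ minus 5′ control signal on the log2 scale was -0.54 to -0.35 on irradiated arrays and -0.32 to 0.02 on unirradiated ones. The same measure for Actb was 0.44 to 0.58 on irradiated and 0.35 to 0.66 on unirradiated arrays, without separating them. Their part in the results was not tested. In bulk tissue, more cells of a type and more RNA per cell cannot be told apart.

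Promoters are shown for the 3 fibulin genes, which moved together after irradiation. They span 250 bases before to 50 after an annotated transcription start, from RefSeq on GRCm38.p6, written 5′ to 3′ on the gene's strand. Fbln1 and Fbln5 have 2 windows each in the table, and of each the one with GC boxes is shown, so their presence there is no finding. Capitals mark matches to 3 short motifs searched on both strands: the GC box GGGCGG, the CCAAT box CCAAT and the SMAD element CAGACA. The Fbln1 window is chr15:85205758-85206057 on the plus strand, that of Fbln2 is chr6:91212514-91212813 on the plus strand, and that of Fbln5 is chr12:101819070-101819369 on the minus strand.
Fbln1: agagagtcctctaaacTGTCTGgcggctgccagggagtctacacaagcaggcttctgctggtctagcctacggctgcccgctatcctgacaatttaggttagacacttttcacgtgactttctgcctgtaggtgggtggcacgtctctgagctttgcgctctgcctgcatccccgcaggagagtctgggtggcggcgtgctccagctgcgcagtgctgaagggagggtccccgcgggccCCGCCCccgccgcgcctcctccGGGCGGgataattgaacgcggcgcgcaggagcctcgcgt
Fbln2: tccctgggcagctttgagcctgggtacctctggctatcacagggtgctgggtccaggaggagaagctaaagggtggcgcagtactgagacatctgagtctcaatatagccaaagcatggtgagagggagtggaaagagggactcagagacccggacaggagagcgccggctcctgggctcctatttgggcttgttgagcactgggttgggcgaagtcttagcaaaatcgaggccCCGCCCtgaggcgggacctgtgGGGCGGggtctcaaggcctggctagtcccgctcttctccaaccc
Fbln5: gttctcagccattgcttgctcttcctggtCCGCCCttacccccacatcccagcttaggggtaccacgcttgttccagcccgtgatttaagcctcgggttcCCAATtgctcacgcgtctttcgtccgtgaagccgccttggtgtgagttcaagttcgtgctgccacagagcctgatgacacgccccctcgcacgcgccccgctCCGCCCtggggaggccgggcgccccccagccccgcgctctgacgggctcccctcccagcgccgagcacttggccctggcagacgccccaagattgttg

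GC boxes are held by 35.7% of 32851 promoter windows of this length in the mouse table. In the Fbln1 window they begin at -11 and 11 relative to the start, in that of Fbln2 at -16 and 6, and in that of Fbln5 at -221 and -48. The SMAD element, which 21.0% of all windows hold, lies in the Fbln1 window at -234, on the opposite strand, and the CCAAT box, held by 37.4%, in the Fbln5 window at -150. The windows shown have a GC content of 64% (Fbln1), 60.3% (Fbln2) and 65.7% (Fbln5), against a median of 52.7% over all. The windows not shown have 51.7% (Fbln1) and 48.7% (Fbln5). As the choice was by GC boxes, the higher GC content of the Fbln1 and Fbln5 windows shown is no finding either. Neither the AP-1 site TGANTCA (7.8% of all windows) nor the TATA box TATAAA (13.6%) was found in any of the 7 windows listed for 5 of the genes (Fbn1, Fbln1, Fbln2, Fbln5 and Emilin1). These matches describe letters and show no binding.

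Most elastic fibre genes were higher 8 weeks after irradiation in each genotype. In knockout 5 of the 7 passed the test upward and 0 downward, where 23.5% of all 12568 genes tested passed in either direction, 14% upward and 9.5% downward. In wild type 6 of 7 passed upward and 0 downward, where 24.1% passed in either direction, 15.8% upward and 8.34% downward. Every irradiated array lay above every unirradiated one for 6 of 7 in knockout and 7 of 7 in wild type, as it did for 28.4% and 30.8% of all genes. The median log2 difference of the 7 was 1.42 in knockout and 2.29 in wild type, against 0.01 and 0.07 over all genes tested. On the probe sets used, Mfap5, Fbln5 and Fbln1 had the largest differences that passed, Fbln2 and Eln smaller ones, and Mfap4 varied too widely to pass in either genotype. Passing means a Benjamini-Hochberg adjusted p under 0.05 over all genes in limma. All 7 passed the filter on dim genes, Mfap4 and Mfap5 mainly through irradiated arrays, since each lay above the array median on 1 of 4 unirradiated arrays; of these, Mfap5 is among the 5 and the 6 called. The counts were the same without the filter.

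**Figure D1:**
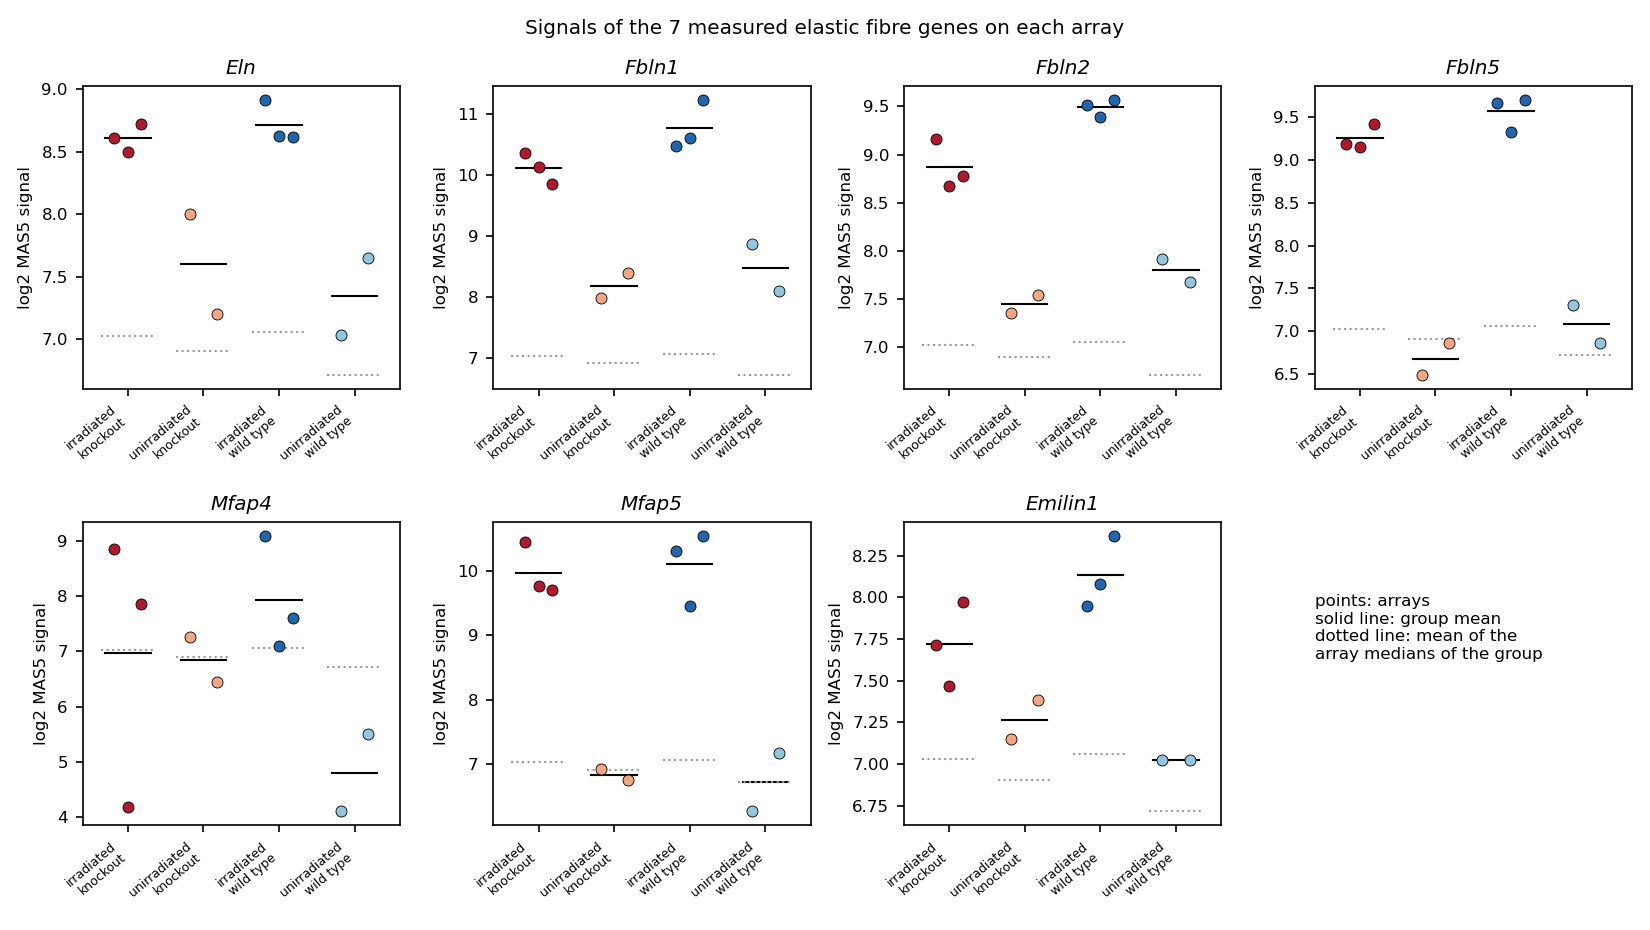
Log2 MAS5 signal of the 7 measured elastic fibre genes on each of the 10 arrays, by group (points, arrays; solid lines, group means; dotted lines, mean of the array medians). For Eln, Fbln1, Fbln2, Fbln5, Mfap5 and Emilin1 every irradiated array lies above every unirradiated array of its genotype, whereas irradiated knockout spreads from 4.19 to 8.85 for Mfap4.

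Eln encodes the elastic core of the fibre. Read on its brighter probe set, it had log2 signals of 8.61, 8.49 and 8.72 in irradiated knockout, against 8.0 and 7.20 in unirradiated knockout. In wild type it had 8.92, 8.62 and 8.61 after irradiation, against 7.04 and 7.65 without. The 6 irradiated arrays lay close together and above all 4 unirradiated arrays, which spread over a wider range. Eln rose by 1.01 ± 0.28 (SE) on the log2 scale in knockout, a 2.01-fold higher signal (adjusted p = 0.027), and by 1.37 ± 0.28 in wild type, 2.59-fold (adjusted p = 0.0077). The knockout call was lost without replicate 2 of unirradiated knockout (0.61, adjusted p = 0.21) and without replicate 1 or 3 of irradiated knockout (1.01 and 0.95, adjusted p = 0.070 and 0.077). The wild-type call was lost without replicate 1 of unirradiated wild type (1.07, adjusted p = 0.069).

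Fibulin 5 tethers tropoelastin to the microfibril and to cell-surface integrins, and mice without it have disorganised elastic fibres. Fbln5 had log2 signals of 9.18, 9.16 and 9.42 in irradiated knockout, against 6.49 and 6.86 in unirradiated knockout. In wild type the signals were 9.67, 9.33 and 9.70 after irradiation, against 7.31 and 6.86 without. The gap between irradiated and unirradiated arrays was several times the spread within any group. Fbln5 rose by 2.58 ± 0.22 in knockout (5.97-fold, adjusted p = 1.4e-04) and by 2.48 ± 0.22 in wild type (5.59-fold, adjusted p = 3.0e-04). Unirradiated levels were close to the array median.

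Fibulins 1 and 2 are found in elastic fibres and in basement membranes, where they bind several matrix proteins. Fbln1 had log2 signals of 10.36, 10.13 and 9.85 in irradiated knockout, against 7.97 and 8.39 in unirradiated knockout, and rose by 1.94 ± 0.29 (3.83-fold, adjusted p = 0.0022). It had 10.48, 10.60 and 11.23 in irradiated wild type, against 8.86 and 8.09 in unirradiated wild type, and rose by 2.29 ± 0.29 (4.91-fold, adjusted p = 0.0010). The groups did not overlap in either genotype. Fbln2 had 9.16, 8.67 and 8.78 in irradiated knockout, against 7.36 and 7.54 in unirradiated knockout, and rose by 1.42 ± 0.19 (2.68-fold, adjusted p = 0.0012). It had 9.51, 9.39 and 9.57 in irradiated wild type, against 7.92 and 7.68 in unirradiated wild type, and rose by 1.69 ± 0.19 (3.22-fold, adjusted p = 6.2e-04). The 3 irradiated wild-type arrays were the highest of the 10 for Fbln1 and for Fbln2.

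Mfap5 encodes a microfibril-associated glycoprotein that binds fibrillins. It had log2 signals of 10.45, 9.78 and 9.70 in irradiated knockout, against 6.92 and 6.75 in unirradiated knockout, and rose by 3.14 ± 0.38 (8.82-fold, adjusted p = 6.4e-04). In wild type it had 10.32, 9.45 and 10.54 after irradiation, against 6.26 and 7.17 without, and rose by 3.39 ± 0.38 (10.5-fold, adjusted p = 5.7e-04). The 95% intervals of this probe set (1418454_at) ran from 2.30 to 3.98 in knockout and from 2.55 to 4.23 in wild type. Without irradiation Mfap5 lay near the array median, so the fold is uncertain.

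Mfap4, whose product binds tropoelastin and fibrillin and promotes fibre assembly, varied most between arrays of a group. Its log2 signal was 8.85, 4.19 and 7.86 in irradiated knockout, against 7.25 and 6.45 in unirradiated knockout. In wild type it was 9.08, 7.10 and 7.60 after irradiation, against 4.10 and 5.51 without. Replicate 2 of irradiated knockout stood far below the other irradiated arrays, at the level of the lowest unirradiated one. The difference was 0.11 ± 1.19 (SE) in knockout, with a 95% interval from -2.54 to 2.77 (adjusted p = 0.96). In wild type it was 3.12 ± 1.19, from 0.47 to 5.78 (adjusted p = 0.084), with no overlap of the groups. Without replicate 2 of irradiated knockout the fit called the wild-type difference (adjusted p = 0.0085), and the knockout difference was 1.5. Mfap4 has a single probe set here, so no other reading of that array was available.

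Emilin1, which coats the elastin surface and limits the processing of TGF-beta precursors, had the smallest difference among the 6 genes called in wild type. It had log2 signals of 7.71, 7.47 and 7.97 in irradiated knockout, against 7.15 and 7.38 in unirradiated knockout. The groups did not overlap, but the difference of 0.45 ± 0.24 (95% interval -0.09 to 0.99) did not pass (adjusted p = 0.20). It had 7.95, 8.08 and 8.37 in irradiated wild type, against 7.02 and 7.03 in unirradiated wild type, and rose by 1.11 ± 0.24 (2.15-fold, adjusted p = 0.011). That call was lost without replicate 1 of unirradiated wild type (1.11, adjusted p = 0.058).

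**Figure D2:**
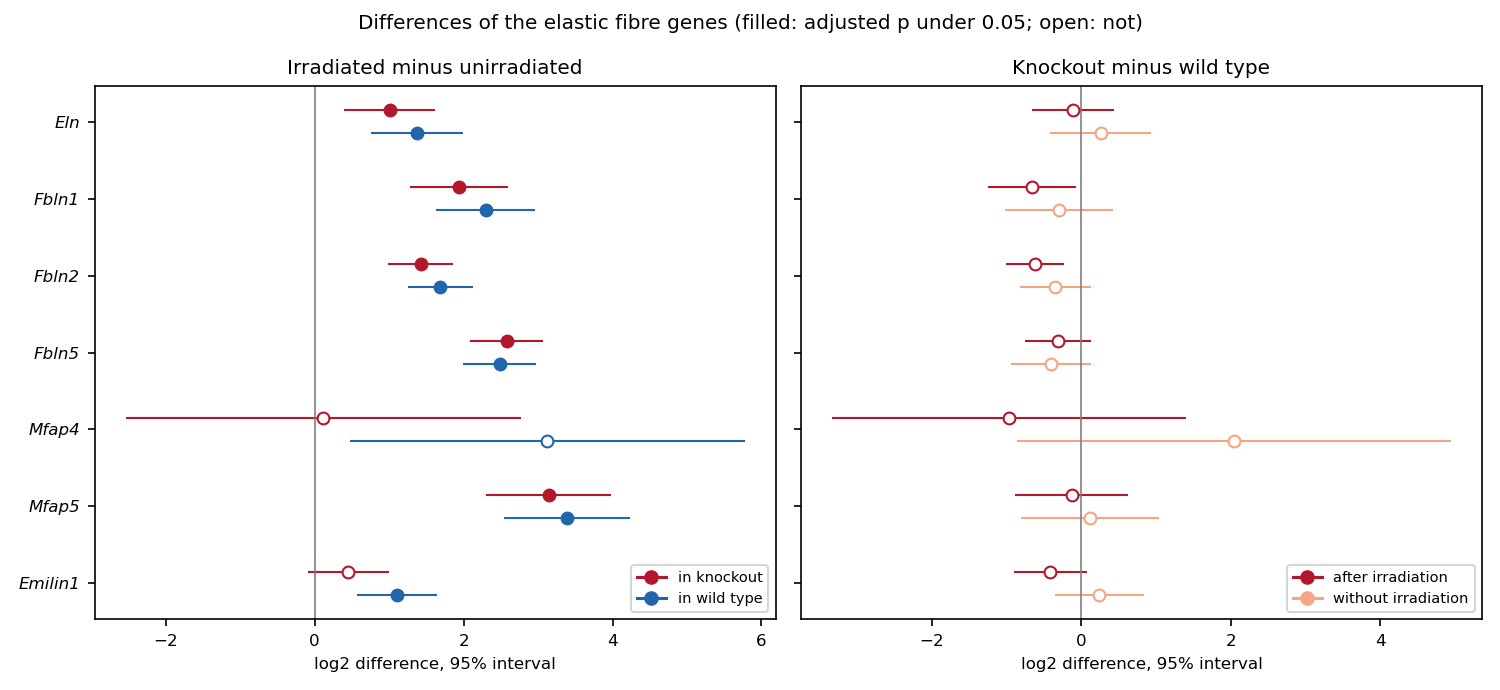
Log2 differences of the 7 genes with 95% intervals from limma, for irradiated minus unirradiated (left, knockout and wild type) and knockout minus wild type (right, after and without irradiation). Filled points have an adjusted p under 0.05: 5 in knockout and 6 in wild type on the left, 0 on the right.

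Part of the rise was also called within 1 sex pattern. Among male-pattern arrays, replicates 2 and 3 of irradiated knockout against both unirradiated knockout arrays, 4 of the 7 genes passed: Fbln5 (2.61, adjusted p = 7.9e-04), Mfap5 (2.90, 0.0027), Fbln2 (1.28, 0.0044) and Fbln1 (1.81, 0.0093). The share of all genes that passed there was 13.5%. For this comparison it is the fit without replicate 1 of irradiated knockout (1699 genes called under either name), so it is not a separate check. With sex pattern as a covariate, the wild-type differences of Fbln5, Mfap5, Fbln1 and Fbln2 were 2.59, 2.68, 1.92 and 1.25 and none of the 7 genes passed (adjusted p = 0.062 to 0.97), while 0.127% of all genes did; that covariate rests on a single female array of knockout. Array medians were not equal: centring each array on its own median moved the median over all genes to -0.11 in knockout and -0.27 in wild type. Under that scaling 5 members in knockout and 6 in wild type were called upward.

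Probe sets of a gene did not always read alike. The second bright Fbln1 probe set (1451119_a_at) rose by 2.12 ± 0.17 in knockout and 2.28 ± 0.17 in wild type, close to the first (1422540_at). The remaining Fbln1 probe set (1439688_at), near the array median, had 0.19 ± 0.41 in knockout and 0.10 ± 0.41 in wild type and did not pass. The other Mfap5 probe set (1449082_at) rose by 1.61 ± 0.27 in knockout and 2.32 ± 0.27 in wild type, smaller values than those of 1418454_at with the same direction. Read on 1449082_at, Mfap5 would rank below Fbln5 in both genotypes, with 95% intervals (1.00 to 2.22 in knockout and 1.71 to 2.94 in wild type) that overlap those of Eln (0.40 to 1.61 and 0.77 to 1.98). Over all probe sets tested, 20.3% passed in knockout and 20.4% in wild type. The remaining probe sets of Eln, Fbln2, Fbln5 and Emilin1 lay below the median on all 10 arrays and were not tested. Among these, the Emilin1 probe set 1431834_a_at averaged 5.33 in irradiated knockout and 6.13 in unirradiated knockout, and 4.85 in irradiated and 5.76 in unirradiated wild type, opposite to the brighter one.

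**Figure D3:**
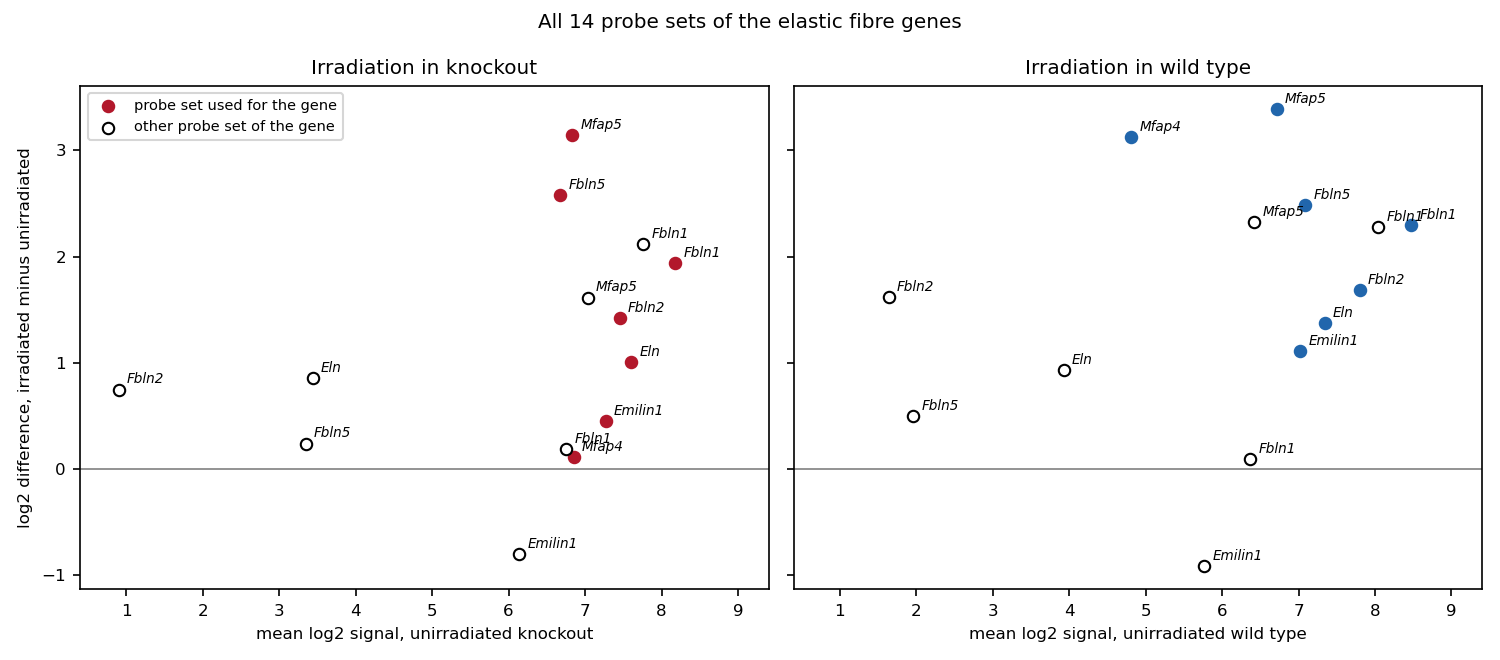
All 14 probe sets of the 7 genes: mean log2 signal in the unirradiated group (x axis) against the log2 difference of irradiated and unirradiated means (y axis), in knockout (left) and wild type (right). Filled points are the probe sets used for the genes and open points the others. The probe sets used lie above 0 in both genotypes, and the dimmer Emilin1 probe set lies below 0 in both.

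Between knockout and wild type, none of the 7 genes differed past the threshold. After irradiation 0 of 7 passed in limma, as did 0% of all genes, and 2 of 7 had an unadjusted p under 0.05, against 500 of 12568 genes. On the probe sets used, all 7 differences were negative, with a median of -0.41 against 0.00 over all genes. The dimmer Fbln1 probe set 1439688_at had 0.47 ± 0.36. Sex pattern was not balanced here: all irradiated wild-type arrays were of female pattern, and a single irradiated knockout array was. Fbln2 lay at 8.67 to 9.16 in irradiated knockout, below the 9.39 to 9.57 of irradiated wild type, a difference of -0.62 ± 0.17 (unadjusted p = 0.0054, adjusted p = 1). Fbln1 likewise did not overlap, at 9.85 to 10.36 in knockout and 10.48 to 11.23 in wild type, with -0.66 ± 0.26 (unadjusted p = 0.033). Non-overlapping groups in that direction were found for 4.04% of all genes. Against the same wild-type arrays, the female-pattern knockout array alone gave -0.32 for Fbln2 and -0.41 for Fbln1, and the fit without it -0.76 and -0.78.

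For the other members the intervals of the knockout minus wild-type difference after irradiation bound what the arrays could show. They ran from -0.66 to 0.44 for Eln, from -0.75 to 0.12 for Fbln5, from -0.88 to 0.62 for Mfap5 and from -0.90 to 0.07 for Emilin1. That of Mfap4, from -3.34 to 1.41, left its direction undetermined; without replicate 2 of irradiated knockout the difference was 0.42. Mfap5 was 0.35 higher on the female-pattern knockout array than in irradiated wild type, 0.01 higher without replicate 3 of irradiated knockout and 0.09 higher without replicate 3 of irradiated wild type. Its direction therefore turned with single arrays.

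Without irradiation 0 of 7 passed, against 1.23% of all genes, and 0 of 7 had an unadjusted p under 0.05, against 2082 of all genes. Mfap4 had the widest difference, 7.25 and 6.45 in unirradiated knockout against 4.10 and 5.51 in unirradiated wild type, or 2.04 ± 1.30 (adjusted p = 0.46). Fbln2 was lower in knockout without overlap, with a difference of -0.35 ± 0.21, and Emilin1 higher, with 0.24 ± 0.26, while groups were apart for 18.9% of all genes in the lower and 28.9% in the higher direction. The intervals ran from -0.42 to 0.93 for Eln, from -1.02 to 0.43 for Fbln1, from -0.94 to 0.13 for Fbln5 and from -0.80 to 1.04 for Mfap5. The directions of Eln and Mfap5 turned without replicate 1 of unirradiated wild type (-0.05 and -0.33), as did that of Fbln1 (0.09), and that of Eln also without replicate 1 of unirradiated knockout (-0.14).

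Nor did the irradiation effect differ past the threshold between genotypes. The difference of the effects, knockout minus wild type, passed for 0 of 7, against 0.207% of all genes, and 0 of 7 had an unadjusted p under 0.05, against 1310 of all genes. It ran from -0.37 ± 0.39 for Eln, -0.36 ± 0.42 for Fbln1 and -0.27 ± 0.27 for Fbln2 to 0.09 ± 0.31 for Fbln5. Mfap5 had -0.25 ± 0.53, Emilin1 -0.66 ± 0.34 and Mfap4 -3.01 ± 1.68. Its 95% interval ran from -0.60 to 0.79 for Fbln5, from -1.42 to 0.11 for Emilin1 and from -6.76 to 0.74 for Mfap4.

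Other genes of elastic fibres were read from 3 lists. Among further components and members of their gene families, 13 of 14 had a probe set and 11 were tested. In knockout 5 rose and 1 fell, where 14% of all genes passed upward and 9.5% downward. Mmrn1 and Mmrn2, endothelial members of the emilin family, rose by 2.57 ± 0.33 and 1.20 ± 0.20, the fibulin-like Efemp1 by 1.34 ± 0.23 and Emilin2 by 1.75 ± 0.32. In wild type Efemp1 had 0.46 ± 0.23 and did not pass (adjusted p = 0.17). Its mean was lowest in unirradiated knockout, 9.51, against 10.26 in unirradiated wild type. Ltbp3, which binds latent TGF-beta, rose by 0.91 ± 0.28 (adjusted p = 0.044). Hemicentin 1 (Hmcn1), a large matrix protein, had 7.56, 8.05 and 8.46 in irradiated knockout, against 9.77 and 9.0 in unirradiated knockout, and fell by 1.36 ± 0.31 (adjusted p = 0.014). It stood highest in unirradiated knockout among the 4 groups, and the fall was lost without replicate 1 of that group (-0.97, adjusted p = 0.13). The Emilin2 call was lost without replicate 2 of unirradiated knockout (1.39, adjusted p = 0.054), and that of Ltbp3 without any of 9 of the 10 arrays left out singly.

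In wild type 8 of those 11 rose and 0 fell, with a median of 1.59, where 15.8% of all genes passed upward and 8.34% downward. The latent TGF-beta binding protein Ltbp2, which also binds fibulin 5, had 7.11, 8.96 and 8.97 in irradiated wild type, against 4.70 and 4.50 in unirradiated wild type, a difference of 3.74 ± 0.62 (adjusted p = 0.0033). It lay under the median on all 4 unirradiated arrays and entered the test through irradiated arrays alone, so its fold is uncertain and the call is given as a description. In knockout Ltbp2 had 1.32 ± 0.62 and did not pass (adjusted p = 0.15). Mmrn1 rose by 3.01 ± 0.33, Mmrn2 by 2.01 ± 0.20, Emilin2 by 1.59 ± 0.32, Ltbp1 by 1.11 ± 0.32 and Ltbp3 by 0.99 ± 0.28. Only 4 genes were called without replicate 1 of unirradiated wild type or replicate 2 or 3 of irradiated wild type, and 5 without the second unirradiated wild-type array. Emilin2 was among those lost without replicate 1 of unirradiated wild type (adjusted p = 0.074). Mmrn1 and Mmrn2 passed with every single array left out.

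Of 11 enzymes and other proteins that cross-link or process the fibres, 9 had a probe set and 7 were tested. In knockout 5 of 7 rose and in wild type 4 of 7, and 0 fell in either, where 14% of all genes passed upward in knockout and 15.8% in wild type. Thsd4, a microfibril-binding protein, had -0.22 in knockout and -0.42 in wild type, and Adamtsl4 0.36 and 0.26, none of which passed. Lysyl oxidase (Lox), which oxidises lysines of elastin and collagen, had 9.47, 8.81 and 9.73 in irradiated knockout, against 7.30 and 6.98 in unirradiated knockout, and rose by 2.20 ± 0.51 (adjusted p = 0.014). In wild type Lox had 10.09, 9.95 and 10.53 after irradiation, against 4.75 and 6.79 without, and rose by 4.42 ± 0.51 (adjusted p = 6.4e-04). Both unirradiated wild-type values lay below their array medians of 6.64 and 6.80, so the wild-type fold is uncertain. For Lox the difference of effects, -2.22 ± 0.72, did not pass (adjusted p = 0.33), and the low value of 4.75 on replicate 1 of unirradiated wild type enters it. The knockout call was lost without replicate 1 or 2 of unirradiated knockout (adjusted p = 0.065 and 0.094).

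Loxl1, the lysyl oxidase most tied to elastin, had 10.10, 9.69 and 9.52 in irradiated knockout, against 8.38 and 8.56 in unirradiated knockout, and rose by 1.30 ± 0.19 (2.47-fold, adjusted p = 0.0018). It had 9.94, 9.82 and 9.95 in irradiated wild type, against 8.14 and 8.44 in unirradiated wild type, and rose by 1.61 ± 0.19 (3.06-fold, adjusted p = 7.2e-04). Bmp1, a protease that activates lysyl oxidase precursors, rose by 1.90 ± 0.31 in knockout and 1.65 ± 0.31 in wild type. In unirradiated knockout Bmp1 had 5.70 and 6.52, below the array medians of 7.01 and 6.80, so its knockout fold is uncertain. Loxl1 and Bmp1 passed in both genotypes with every single array left out. Loxl3 rose by 0.83 ± 0.26 in knockout and 0.88 ± 0.26 in wild type, and Adamts10, which binds fibrillin, by 0.80 ± 0.24 in knockout, close to the threshold (adjusted p = 0.035 to 0.043). Loxl3 entered the test through irradiated arrays. The knockout count of 5 was 2 without either unirradiated knockout array, and 3 without any irradiated knockout array or replicate 2 of irradiated wild type.

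**Figure D4:**
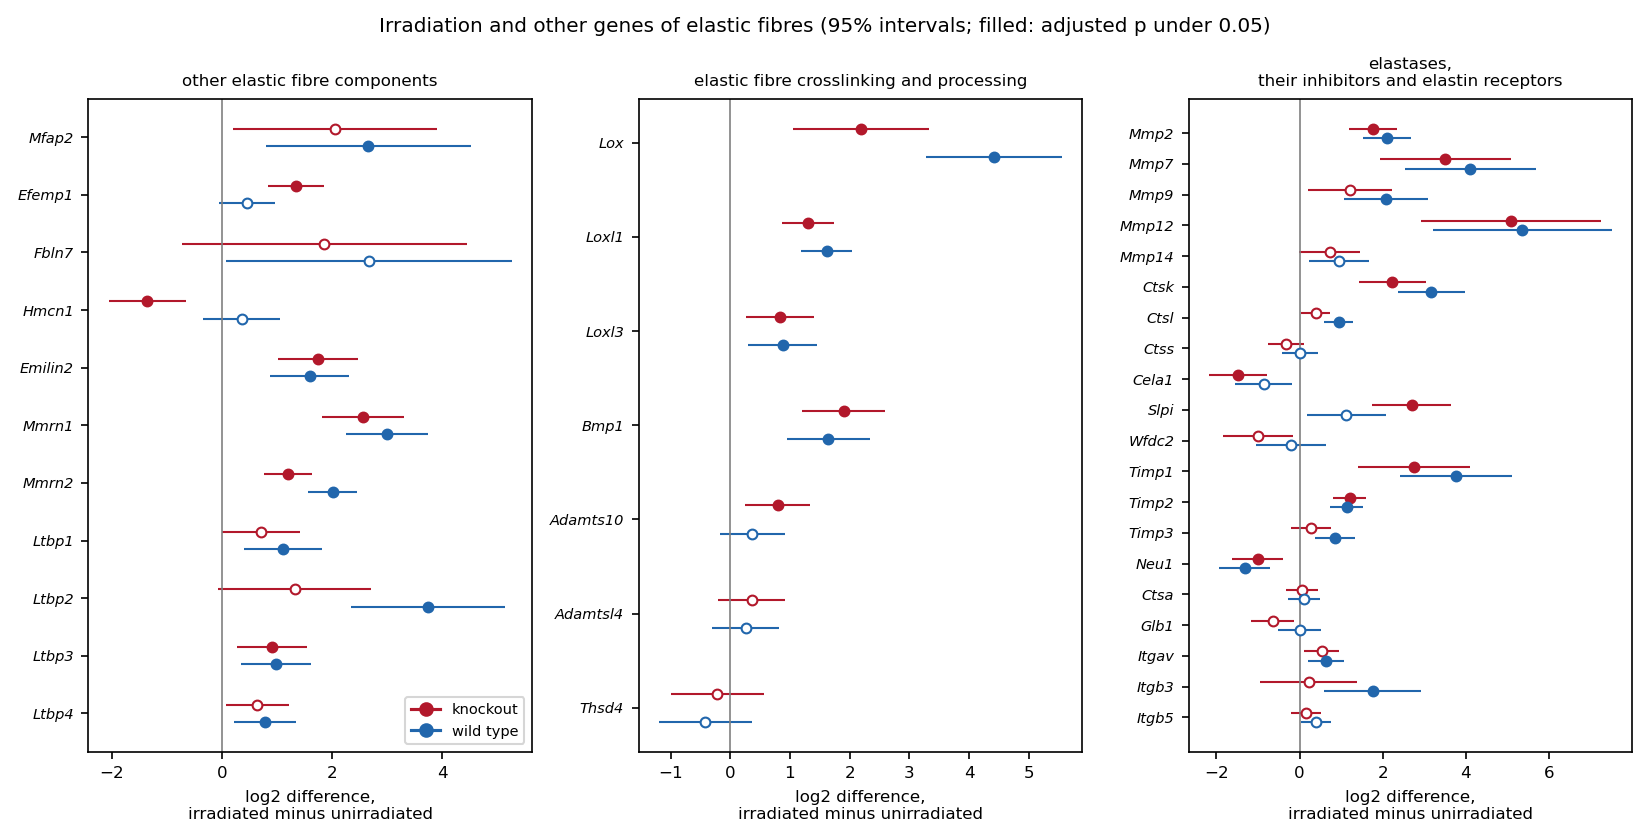
Log2 differences between irradiated and unirradiated arrays, with 95% intervals, for 3 lists of other elastic fibre genes in knockout (red) and wild type (blue); filled points have an adjusted p under 0.05. Most points of components, their family members and cross-linking enzymes lie right of 0. Hmcn1, Ctss and Glb1 lie left of 0 in knockout, and Neu1, Cela1, Thsd4 and Wfdc2 in both genotypes.

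Of 24 enzymes that degrade elastin, their inhibitors and parts of the elastin receptor, 20 were tested. In knockout 7 rose and 2 fell, where 14% of all genes passed upward and 9.5% downward, so the falls were near the share over all genes. In wild type 11 rose and 1 fell, where 15.8% passed upward and 8.34% downward. Mmp7, Mmp9, Mmp12 and Timp1 entered the test through irradiated arrays, with 1 or 0 of 4 unirradiated arrays above the median; they make up 3 of the 7 genes called upward in knockout and 4 of the 11 in wild type, and their folds are uncertain. Among these, the macrophage elastase Mmp12 had 1.35 to 4.90 on unirradiated arrays and a difference of 5.08 ± 0.96 in knockout and 5.36 ± 0.96 in wild type. Gelatinase Mmp2, which also cleaves elastin, rose by 1.77 ± 0.26 in knockout and 2.10 ± 0.26 in wild type. Cathepsin K (Ctsk), a strong elastase, rose by 2.23 ± 0.36 in knockout and 3.17 ± 0.36 in wild type. Of the inhibitors, Timp1 had a difference of 2.76 ± 0.60 in knockout and 3.77 ± 0.60 in wild type, and Timp2 rose by 1.20 ± 0.18 in knockout and 1.13 ± 0.18 in wild type. Slpi, which inhibits neutrophil elastase, rose by 2.69 ± 0.43 in knockout, and the lysosomal protease Ctsl by 0.94 ± 0.16 in wild type. In the other genotype they had the same direction without passing, Slpi 1.13 ± 0.43 in wild type (adjusted p = 0.084) and Ctsl 0.39 ± 0.16 in knockout (0.093). Neither passed in the difference of effects. Matrilysin (Mmp7) had a difference of 3.51 ± 0.70 in knockout and 4.11 ± 0.70 in wild type.

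The sialidase Neu1, a subunit of the elastin receptor complex that also works in lysosomes, fell by 1.00 ± 0.27 in knockout (adjusted p = 0.027) and by 1.31 ± 0.27 in wild type (adjusted p = 0.0090). The other receptor parts did not fall past the threshold. Ctsa, Glb1 and Itgb5 passed in neither genotype. Itgav and Itgb3 rose in wild type by 0.64 ± 0.19 and 1.76 ± 0.52 (adjusted p = 0.037 and 0.036) and did not pass in knockout. In unirradiated wild type Itgb3 had 5.67 and 6.04, below the array medians of 6.64 and 6.80, so its fold is uncertain. Cela1, a serine elastase, fell by 1.49 ± 0.31 in knockout (adjusted p = 0.0091), and its wild-type difference of -0.86 ± 0.31 did not pass (adjusted p = 0.070). Leaving out the first unirradiated wild-type array gave 7 calls in wild type instead of 12, and in knockout Mmp12 and Mmp7 were no longer called without replicate 1 of unirradiated knockout (adjusted p = 0.053 and 0.063). Between genotypes 0 genes of the 3 lists passed after irradiation, without it, or in the difference of effects. At an unadjusted p under 0.05 there were 1 of 11, 0 of 7 and 2 of 20 after irradiation, 3, 2 and 2 without it, and 4, 1 and 2 in the difference of effects, for components, cross-linking enzymes and elastases in that order.

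Markers of connective tissue moved with the elastic fibre genes. Of 10 fibroblast markers, 9 rose in knockout and 10 in wild type, where 14% and 15.8% of all genes passed upward, and their mean log2 signal was 11.65 to 12.08 in irradiated and 10.12 to 10.19 in unirradiated knockout. In wild type it was 11.94 to 12.16 after irradiation and 10.23 to 10.35 without. Adventitial fibroblast markers rose for 4 of 6 in each genotype, and endothelial markers for 8 of 9. Of these 4, Pi16 and Cd248 entered the test through irradiated arrays, with 0 unirradiated arrays above the median. Dpp4 and Sema3c did not pass, and in knockout both were lower without overlap, as were 3218 of 12568 genes. All 10 macrophage markers rose in each genotype, with a mean of 10.46 to 11.19 in irradiated and 7.27 to 7.98 in unirradiated knockout, and 11.36 to 11.58 in irradiated and 8.35 to 8.61 in unirradiated wild type. Of these markers, Cd68 and Fcgr1 entered the test through irradiated arrays, with 1 and 0 unirradiated arrays above the median. Of 10 absorptive colonocyte markers, 5 fell in knockout and 7 in wild type, where 9.5% and 8.34% of all genes passed downward. Of 10 smooth muscle markers 0 passed in either genotype, and all 10 lay above the median on every array. The part of these cell types in the results was not tested.

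Markers of tissues that border the rectum varied too. The mean log2 signal of 11 squamous epithelium markers was 11.14 to 12.84 in irradiated and 4.65 to 5.35 in unirradiated knockout, and 8.51 to 12.18 in irradiated and 4.54 to 5.44 in unirradiated wild type. For 12 striated muscle markers it was 10.39 to 12.33 in irradiated and 8.53 to 8.90 in unirradiated knockout, and 5.33 to 11.62 in irradiated and 4.31 to 4.59 in unirradiated wild type. Adipocyte markers had 8.72 to 11.35 in irradiated and 7.09 to 8.20 in unirradiated knockout, and 10.42 to 11.54 in irradiated and 6.59 to 6.74 in unirradiated wild type. Replicate 3 of irradiated wild type had the lowest squamous, striated muscle and adipocyte means of its group. The same array had the highest signals of all 10 for Fbln1, Fbln2, Fbln5, Mfap5 and Emilin1, and the highest mean of fibroblast markers (12.16). It also had the highest mean of 6 mesothelium markers, 7.27, against 5.41 to 5.63 in irradiated and 4.6 to 4.90 in unirradiated knockout, 5.72 and 5.77 on the other irradiated wild-type arrays and 4.22 to 4.69 in unirradiated wild type. Of those 6 genes, 3 lay above the median on that array and 1 or 2 on the others, so these means rest largely on dim signals. Only 2 of them passed the filter. The part of these tissues in the results was not tested. Replicate 2 of irradiated knockout, the array with low Mfap4, had the lowest fibroblast and adipocyte means among irradiated arrays. Unirradiated knockout exceeded unirradiated wild type in the striated muscle mean, and Mfap4 was higher in unirradiated knockout on both arrays. On other arrays they parted: replicate 2 of irradiated knockout had a striated muscle mean of 10.39 and Mfap4 at 4.19. Replicate 3 of irradiated wild type had 5.33 and 7.60. A link between them was not tested.

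**Figure D5:**
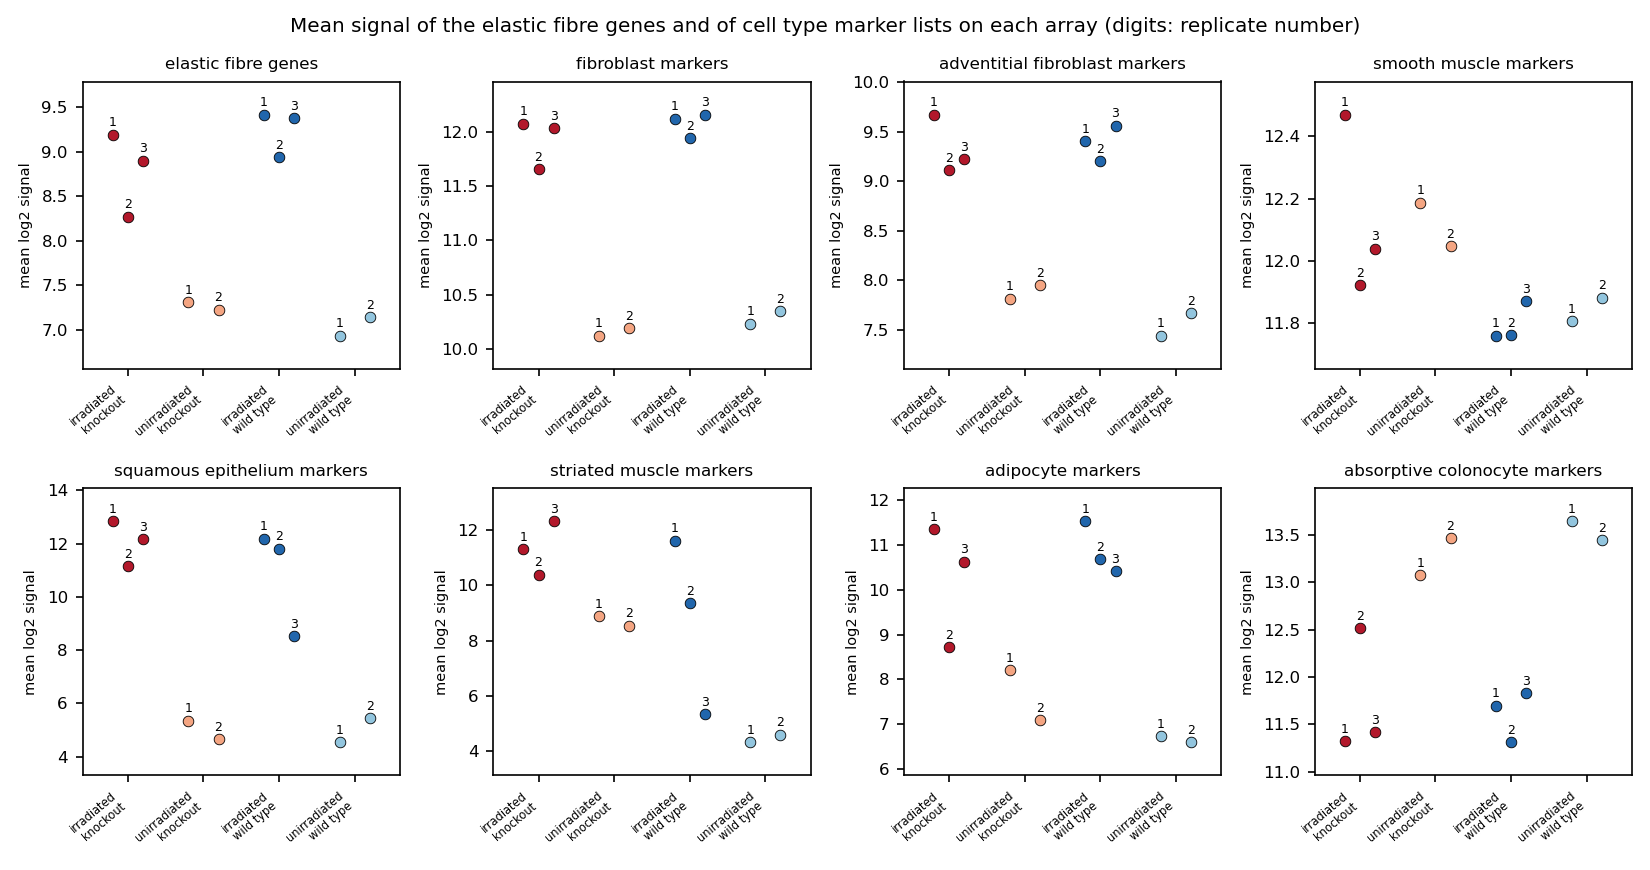
Mean log2 signal per array of the 7 elastic fibre genes and of 7 cell type marker lists, by group (digits, replicate numbers). All lists shown except smooth muscle markers separate irradiated from unirradiated arrays in each genotype, absorptive colonocyte markers downward and the others upward. Replicate 3 of irradiated wild type is the lowest irradiated array for squamous and striated muscle markers.

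Across the 10 arrays the fibulins ran most closely together, with Pearson's r of 0.98 between Fbln1 and Fbln2 and 0.97 between Fbln5 and Fbln2. Eln was closest to Mfap5 (r = 0.93), and Mfap4 had r of 0.42 to 0.65 with the other members. The arrays fall into irradiated and unirradiated sets, so these values mostly restate that split. By the same measure, the non-member genes most like Eln were Orm1 (0.98), Fgl2, Tmem184c, Fam234b and Ctla2a (0.97 each). Those most like the mean of the 7 genes were Rab11fip5, Col6a3, Emcn, Abca1 and Cmtm3 (r = 0.99 each).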

How the data were processed

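The values are MAS5 signals computed by the authors, per the submitters' processing notes (version not given), and deposited on the log2 scale, as judged from the values. They were used unchanged, and the few arrays set the precision. Of 45101 probe sets, 34945 carried 1 gene in the platform annotation, 932 several and 9160 none; 34741 symbols were brought up to date through their gene IDs. A gene was read on its probe set with the highest mean, giving 18193 genes, and tested where it exceeded the median of 2 or more arrays (12568).

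Groups followed the titles. Differences were fitted with limma 3.58.1 in R 4.3.3, with a mean for each of the 4 groups in 1 model of 10 arrays (6 residual df), and with a variance trend and Benjamini-Hochberg adjustment at 0.05, two-sided, for 5 comparisons; probe sets were fitted likewise. The fit was tested on simulated data.

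Members, gene lists and tests were chosen with earlier results of these data known, so lists are described by counts and medians only. Named were all members, and of each other list up to 6 called genes by smallest p, or 2 where none passed. Neu1, Cela1, Mmp9, Itgav, Itgb3, Cd68, Fcgr1 and genes given in the other genotype for comparison, or as not passing, were named after their values were seen. The 5 genes most like Eln and most like the members' mean were taken by Pearson's r. Alternatives were quantile normalization, median centring, pseudocounts of 16 and 64, other filters, no trend, other uses of probe sets, only the groups compared, the replicate number as a block, sex pattern and leaving out arrays. The p-values cover the spread between these arrays only.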

Additional observations from a re-analysis of the deposited data

Results flagged for a closer look

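Among the marker genes of the lists used here, Car3 (carbonic anhydrase 3, abundant in fat and muscle) had an irradiation effect that differed between the genotypes by -5.32 ± 0.33 (SE) on the log2 scale (adjusted p = 3.0e-04). It averaged 14.42 in irradiated and 12.27 in unirradiated knockout, and 14.44 in irradiated and 6.96 in unirradiated wild type. None of the 7 elastic fibre genes differed in this way; groups of 2 or 3 arrays were not tested for single outlying arrays.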

How the results depend on the processing

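With 2 or 3 arrays a group, array number and dim unirradiated signals (Mfap4, Mfap5) limit what could be shown. Leaving out single arrays gave 4 to 5 of 7 genes called in knockout and 4 to 7 in wild type, and 0 to 0 in the genotype comparisons and the difference of effects. Averaging a gene's probe sets gave counts of 2 in knockout and 2 in wild type, since only 3 of the genes were then tested. With sex pattern as a covariate the wild-type count was 0, and 16 genes in all were called; the cause was not tested. Replicate numbers did not pair the arrays, since deviations of same-numbered arrays correlated at -0.20 to 0.16 over 13 pairs; with the replicate block 4 genes were called in knockout (Eln lost, adjusted p = 0.069), 6 in wild type and 0 elsewhere, and over all genes 2075, 1995, 0, 70 and 3.

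Direction turned in 30 cases, all of uncalled values, where the cause was not tested. For irradiation in knockout, the male-pattern arrays and the fit without replicate 1 of irradiated knockout are the same fit and were both counted. Irradiation in knockout gave for Mfap4 -0.031 by quantile normalization, -0.0094 by median centring, -0.028 with the block, -0.83 with the sex covariate and within male arrays, and -0.83 to 1.5 with single arrays left out. Knockout minus wild type after irradiation gave 0.92 for Mfap4 and 0.35 for Mfap5 with the sex covariate and within female arrays, and -1.91 to 0.42 and -0.46 to 0.090 with single arrays left out. Without irradiation it gave for Mfap5 -0.072 by quantile normalization, -0.069 by median centring and -0.33 to 0.57 with single arrays left out, when it was -0.14 to 0.66 for Eln and -0.68 to 0.090 for Fbln1. The difference of effects gave -0.022 for Fbln5 with a pseudocount of 64, and 0.025 for Fbln2 and 0.23 for Mfap5 with the sex covariate. With single arrays left out it was -0.77 to 0.033 for Eln, -0.75 to 0.028 for Fbln1, -0.13 to 0.32 for Fbln5 and -0.70 to 0.20 for Mfap5. Over all genes, leaving out 1 array gave as few as 1189 calls in knockout and 1323 in wild type. Of the alternative values of single members, 706 kept direction and call, 14 lost the call and 2 gained it. The 706 include comparisons in which no member was called, where no call could be lost, so they do not measure how stable the calls were.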
